A study of Mus musculus with 29 samples.

Results

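Progression from G1 to S phase is set by D-type cyclins, by the kinases they activate and by the inhibitors of those kinases, and 10 genes of this module were examined in hematopoietic stem and progenitor cells: the cyclins Ccnd1, Ccnd2 and Ccnd3, the kinases Cdk4 and Cdk6, the Cip/Kip inhibitors Cdkn1a, Cdkn1b and Cdkn1c, and the INK4 inhibitors Cdkn2c and Cdkn2d. They were taken by gene symbol from a table of 30025 genes, in which all 10 were listed, and all 10 were among the 15409 genes with at least 1 FPKM (fragments per kilobase of exon, scaled to the mapped fragments of a library) in at least 4 libraries. RNA-seq had been performed on 29 libraries of CD150hi HSC, CD150lo HSC and CD150neg MPP, which were sorted from bone marrow as c-kit+ lineage- Sca-1+ cells without CD41 and CD48 and divided by their surface level of CD150. The cells came from 5 WT mice (WT/WT) and 5 mice carrying a heterozygous germ line deletion of the 5A3 interval (5A3+/del, WT/DEL), all on the C57BL/6J strain and 12.42 to 13.85 weeks old. Each population had 5 WT and 5 5A3+/del libraries, except for 5A3+/del CD150neg MPP with 4. The sample labels call the CD150neg cells HSC, and the name CD150neg MPP is that of the study. The deletion was made in embryonic stem cells by Cre recombination between sites at Fbxl13 and Srpk2 and is present in every cell of the animal, so that the niche and the other blood cells of the 5A3+/del mice carried it as well.

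D-type cyclins accumulate in response to growth factors and activate Cdk4 and Cdk6, which phosphorylate the retinoblastoma protein and thereby release E2F transcription factors. INK4 proteins bind Cdk4 and Cdk6 and keep cyclins away from them, whereas Cip/Kip proteins bind assembled cyclin-kinase complexes and chiefly block Cdk2. In the adult bone marrow most long-term HSC are out of cycle, and Cdkn1c (p57) and Cdk6 are known as regulators of this quiescence and of the exit from it.

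The libraries held 21229490 to 38797569 fragments. The 10 genes of the annotation that lie between Fbxl13 and Srpk2 and were tested had a median level in 5A3+/del libraries of 53.7% of WT in CD150hi HSC, with 52.7% in CD150lo HSC and 46.1% in CD150neg MPP. Their median level per library did not overlap between the genotypes. Single genes among the 10 ranged from 4.61% to 97.1% of WT in CD150hi HSC and from 31.9% to 89.8% in CD150lo HSC. In CD150neg MPP the range was 15.5% to 107%, with 9 of 10 below WT. Slamf1, which encodes CD150, averaged 14.4 FPKM in WT CD150hi HSC against 1.62 in CD150lo HSC and 0.146 in CD150neg MPP, while Kit was at 111 FPKM or more in every library. WT mouse 3 stood apart from all others by its Xist level, which was 234 to 319 FPKM in its 3 libraries and at most 0.47 FPKM in the other 26. The summed level of 9 granulocyte and monocyte markers ranged from 69.9 to 800 FPKM in WT CD150hi HSC, from 73.3 to 1310 in WT CD150lo HSC, and from 47.1 to 119 in WT CD150neg MPP (means 337, 408 and 97.8), and the highest value in each of these populations came from WT mouse 1. In 5A3+/del libraries this sum was 37.9 to 163 FPKM for CD150hi HSC, 58.5 to 364 for CD150lo HSC and 52.8 to 278 for CD150neg MPP (means 71.1, 191 and 148). Called differences in WT mice are therefore also given without WT mouse 1 and without WT mouse 3.

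Per length, Ccnd2, Ccnd3 and the kinases stood above the inhibitors in mean level in all 6 groups, and Ccnd1 did not. The libraries of Ccnd3 and Cdkn1b overlapped in every group but WT CD150hi HSC, with means of 21.2 and 20.95 in WT CD150lo HSC. In WT CD150hi HSC, Ccnd2 had the highest normalized FPKM (quantile normalized values transformed back from the log2 scale), with 67.9 ± 2.94 (SD, n = 5), and did not overlap with Cdk4 at 31.5 ± 4.45, the next in order. Cdk4, Cdk6 at 30.6 ± 5.04 and Ccnd3 at 28.8 ± 5.71 overlapped with each other. Cdkn1c and Cdkn1b followed at 14.6 ± 2.51 and 14.5 ± 4.06 and could not be separated from each other, and Ccnd1 was at 10.4 ± 2.35. Cdkn2d, Cdkn1a and Cdkn2c closed the order with 6.69 ± 1.56, 6.68 ± 3.90 and 2.35 ± 1.64, respectively. The order changed with the population. In WT CD150neg MPP, Cdk6 was at 55.5 ± 14.3 (n = 5) beside 53.3 ± 2.99 for Ccnd2, with overlapping libraries, and Cdkn1c had moved to the place above Cdkn2d and Cdkn2c with 5.63 ± 1.98. In 5A3+/del cells the leading gene was likewise Ccnd2 in CD150hi HSC (76.95 ± 11.9, n = 5) and Cdk6 in CD150neg MPP (53.2 ± 10.5, n = 4), the latter overlapping with Ccnd2 at 52.8 ± 4.08.

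The variation among all 29 libraries differed between the members. Cdk4 and Ccnd2 varied least, with a ratio of the highest to the lowest library of 1.97 and 2.01. Cdkn2c varied most, by 12.2-fold between 0.414 and 5.03 normalized FPKM, and it rested on the fewest fragments, 15 to 394 per library. Cdkn1a varied by 6.41-fold and Cdkn1c by 5.85-fold, whereas Cdk6, Ccnd1 and Ccnd3 varied by 2.94, 2.64 and 2.45-fold.

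Differences between the populations were tested first, within each genotype, with limma and Benjamini-Hochberg adjustment over all 15409 genes. Between CD150lo HSC and CD150hi HSC, 2 of 10 members (Cdkn1c and Ccnd2) passed in WT mice, where 3.53% of all genes did, and 1 of 10 (Cdkn1c) passed in 5A3+/del mice, where 3.18% did. Between CD150neg MPP and CD150hi HSC, 3 of 10 (Cdkn1c, Ccnd2 and Cdk6) passed in WT mice beside 10.0% of all genes, and 2 of 10 (Cdkn1c and Ccnd2) passed in 5A3+/del mice beside 6.16%. Between CD150neg MPP and CD150lo HSC no member passed in WT mice, where 0.188% of all genes were called, or in 5A3+/del mice with 0.0389%, and the unadjusted p was under 0.05 for 0 members in either genotype, beside 8.75% of all genes in WT and 4.95% in 5A3+/del mice. At that threshold there were 5 members in WT (14.1% of all genes) and 4 in 5A3+/del mice (13.3%) between CD150lo HSC and CD150hi HSC, and 5 (21.8%) and 4 (16.9%) between CD150neg MPP and CD150hi HSC. A fit of voom and limma to the fragments recovered from the FPKM was chosen after the data had been seen. Between CD150neg MPP and CD150lo HSC it also called 0 members in either genotype. The median log2 difference of the members between CD150neg MPP and CD150hi HSC was -0.28 in WT and -0.014 in 5A3+/del mice, beside 0.0070 and 0.0039 over all genes.

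**Figure D1:**
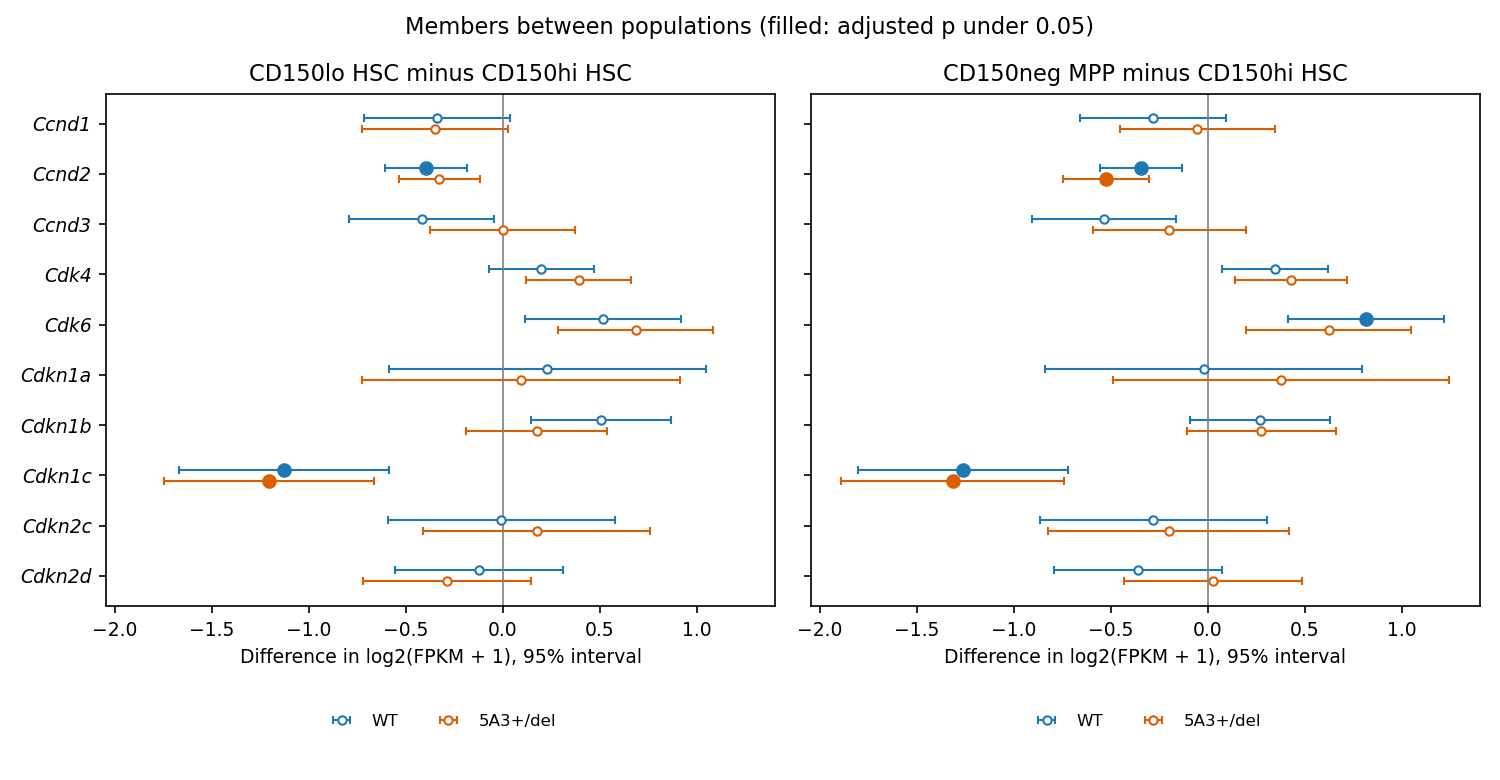
Difference of each member in log2(FPKM + 1) between CD150lo HSC and CD150hi HSC (left) and between CD150neg MPP and CD150hi HSC (right), in WT (blue) and 5A3+/del mice (orange), with 95% intervals from limma as bars and filled points for an adjusted p under 0.05. Cdkn1c lies at -1.13 to -1.31 in all 4 comparisons, and Cdk6 lies between 0.51 and 0.82 on the other side of 0.

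Among the inhibitors, Cdkn1c gave the largest difference of any member. This gene (ENSMUSG00000037664), which lies on chromosome 7 of mm9 from 150644255 to 150646955 on the minus strand, encodes an imprinted Cip/Kip protein that is expressed from the maternal allele. In WT CD150hi HSC the 5 mice had 15.5, 14.8, 10.4, 15.1 and 17.1 normalized FPKM. In WT CD150lo HSC the same mice had 7.66, 6.71, 3.18, 6.28 and 7.45, and in WT CD150neg MPP they had 8.71, 4.19, 6.35, 5.14 and 3.78. Every WT CD150hi library thus lay above every library of the other populations, and WT mouse 3 was the lowest of the 5 in CD150hi and in CD150lo HSC. The level fell to 42.9% of CD150hi HSC in CD150lo HSC (log2 difference -1.13 ± 0.26, where the error of a difference is its SE and that of a mean its SD, adjusted p = 0.0120, limma) and to 38.7% in CD150neg MPP (-1.26 ± 0.26, adjusted p = 0.00179, limma). All 5 mice showed this direction in each comparison. In bulk RNA, fewer cells with the transcript and less of it in each cell cannot be told apart.

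The 5A3+/del mice gave a like picture for Cdkn1c. Their CD150hi HSC had 10.9, 17.3, 16.2, 16.0 and 10.4 normalized FPKM, their CD150lo HSC 2.96, 3.81, 5.86, 10.1 and 6.67, and the 4 libraries of CD150neg MPP 4.17, 9.25, 3.74 and 4.09. The CD150hi libraries were again above all others, although the lowest of them at 10.4 stood close to the CD150lo library of mouse 4 at 10.1. The level was 41.6% of CD150hi HSC in CD150lo HSC (-1.20 ± 0.26, adjusted p = 0.00672, limma) and 37.5% in CD150neg MPP (-1.31 ± 0.28, adjusted p = 0.00286, limma). Between CD150neg MPP and CD150lo HSC the log2 difference was -0.13 in WT mice (95% interval of -0.67 to 0.41) and -0.11 in 5A3+/del mice (-0.68 to 0.47). With the mouse as a fixed replicate block, the 5A3+/del differences missed the threshold with adjusted p = 0.0787 for CD150lo HSC and 0.0557 for CD150neg MPP (limma), whereas those in WT mice kept it with 0.0168 and 0.0265 (limma). A fit of the compared groups alone gave 0.0503 for 5A3+/del CD150lo HSC (limma). Without WT mouse 3 the WT differences were -1.05 (adjusted p = 0.0427, limma) and -1.42 (0.00162), and without WT mouse 1 they were -1.18 (0.0269) and -1.39 (0.00353). Without WT mouse 4 the WT difference between CD150lo and CD150hi HSC was -1.13 with an adjusted p of 0.0567 (limma).

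**Figure D2:**
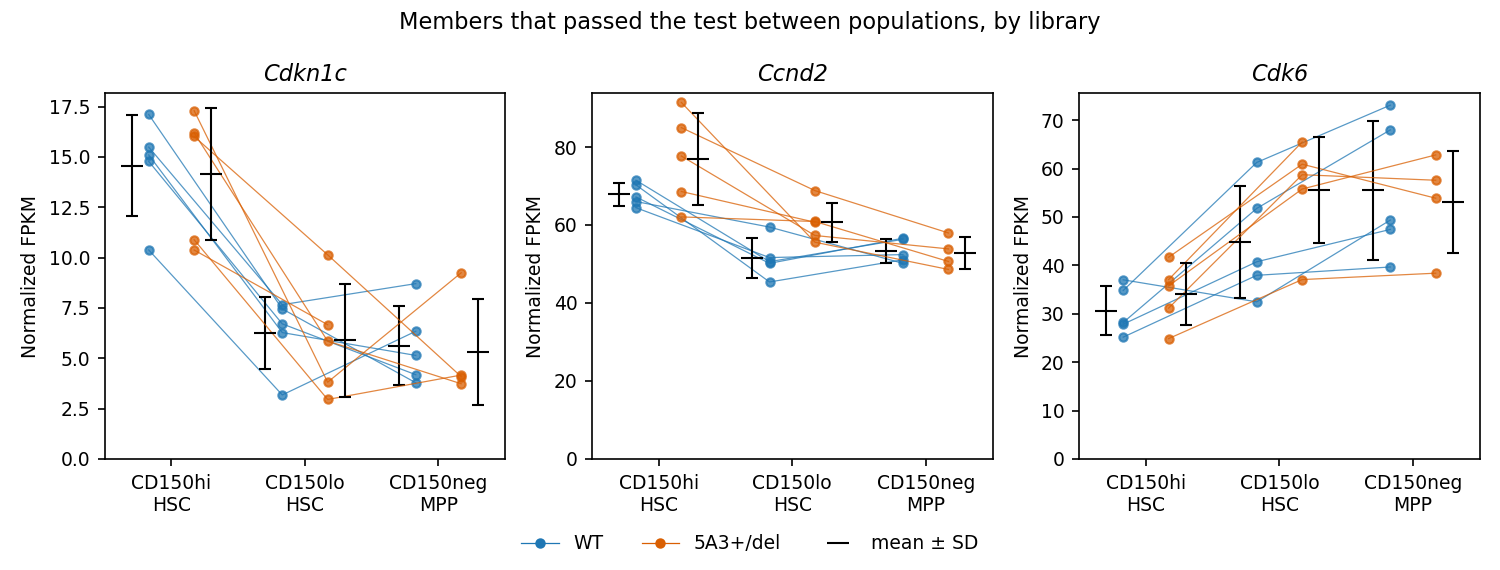
Normalized FPKM of Cdkn1c, Ccnd2 and Cdk6 by library in the 3 populations, for WT (blue) and 5A3+/del mice (orange), with lines joining the libraries of a mouse and black bars for the mean and SD of each group. For Cdkn1c and Ccnd2 the WT CD150hi HSC lie above the other WT populations, and for Cdk6 every WT CD150neg MPP library lies above every WT CD150hi library.

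The other Cip/Kip inhibitors passed in no comparison. Cdkn1b (p27), which holds cyclin-Cdk2 complexes inactive in resting cells, ranged from 10.3 to 31.2 normalized FPKM over the 29 libraries. Its means in WT mice were 14.5 ± 4.06 (CD150hi HSC), 20.9 ± 5.89 (CD150lo HSC) and 17.4 ± 3.38 (CD150neg MPP), and in 5A3+/del mice they were 16.6 ± 2.74, 18.9 ± 2.91 and 20.2 ± 2.30. The log2 difference between WT CD150lo and CD150hi HSC was 0.51 (95% interval 0.14 to 0.87, adjusted p = 0.137, limma), opposite in sign to that of Cdkn1c, and it passed when WT mouse 1 was left out (0.71, adjusted p = 0.0281, limma). WT mouse 3 held both the highest CD150lo value of Cdkn1b (31.2) and the lowest CD150hi value (10.3) of its genotype. Cdkn1a (p21), a target of p53, ranged from 1.91 to 12.2 normalized FPKM. Its means were 6.68 ± 3.90, 7.64 ± 3.52 and 6.61 ± 3.8 in WT CD150hi HSC, CD150lo HSC and CD150neg MPP, and 5.68 ± 2.95, 5.88 ± 2.04 and 7.15 ± 1.77 in the 5A3+/del populations. The intervals of its differences between populations reached from -1.07 to 1.25 on the log2 scale.

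As a share of the summed FPKM of the 3 Cip/Kip inhibitors, Cdkn1c accounted for 41.3% ± 6.85 in WT CD150hi HSC against 19.1% ± 7.34 in CD150lo HSC and 19.3% ± 6.02 in CD150neg MPP (SD, n = 5 each). The WT ranges, 34.4% to 50.1% in CD150hi HSC and at most 25.7% in the other populations, did not overlap. In 5A3+/del mice the share was 38.8% ± 7.33, 19.5% ± 9.50 and 15.9% ± 5.48 (n = 5, 5 and 4), and here CD150hi HSC at 27.5% to 46.7% overlapped with CD150lo HSC at 9.98% to 32.5%. Cdkn1b made up the larger part of the remainder, with 40.3% ± 6.05 in WT CD150hi HSC and 59.7% ± 6.75 in WT CD150lo HSC. The sum of the 3 genes was 35.7 ± 7.00 normalized FPKM in WT CD150hi HSC against 34.9 ± 7.15 in CD150lo HSC and 29.7 ± 6.87 in CD150neg MPP, with overlapping ranges. The shares and sums were not tested.

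**Figure D3:**
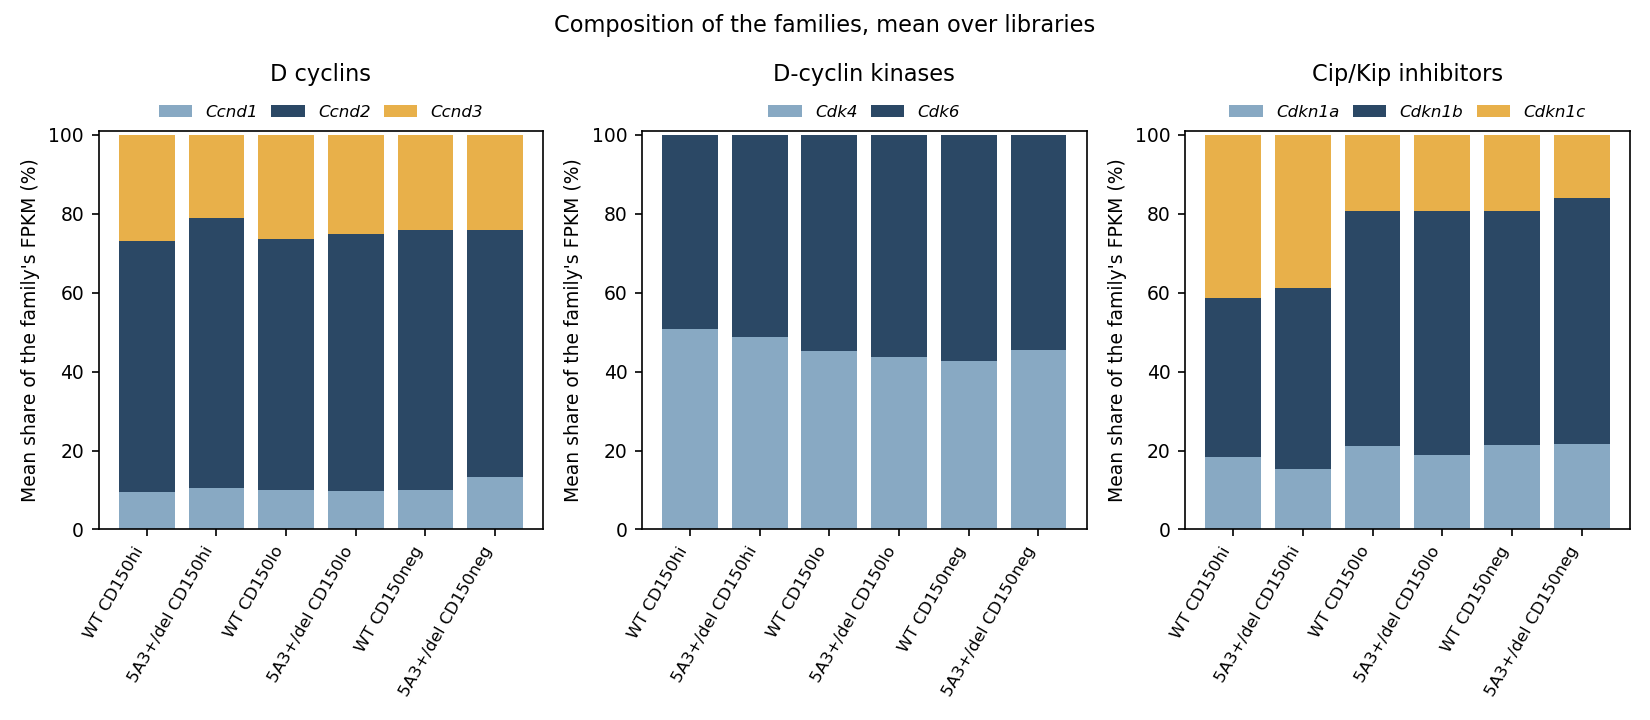
Mean share of each gene in the summed normalized FPKM of its family (D cyclins, D-cyclin kinases, Cip/Kip inhibitors) in the 6 groups, as stacked bars in percent. Ccnd2 holds 62.6% to 68.4% of the D-cyclin sum in all groups, whereas Cdkn1c goes from 41.3% of the Cip/Kip sum in WT CD150hi HSC to 19.1% in WT CD150lo HSC.

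Ccnd2 was the main D-type cyclin transcript in every group, with a mean share of 62.6% to 68.4% of the summed D-cyclin FPKM. The gene (ENSMUSG00000000184) lies on chromosome 6 of mm9 from 127075797 to 127101066 on the minus strand. In WT CD150hi HSC the 5 mice had 67.2, 64.4, 70.3, 71.5 and 66.0 normalized FPKM, in CD150lo HSC 50.2, 51.7, 45.4, 50.6 and 59.5, and in CD150neg MPP 56.6, 52.4, 51.1, 56.3 and 50.2. The WT CD150hi libraries lay above all others, and CD150lo HSC and CD150neg MPP overlapped. The level fell to 75.8% of CD150hi HSC in CD150lo HSC (-0.40 ± 0.10, adjusted p = 0.0247, limma) and to 78.6% in CD150neg MPP (-0.34 ± 0.10, adjusted p = 0.0304, limma), in 5 of 5 mice each. Neither call held with the mouse as a fixed replicate block (adjusted p = 0.294 and 0.176, limma) or in a fit of the compared groups alone (0.14 and 0.0829). Leaving out a WT mouse gave an adjusted p of 0.0883 and 0.0646 without mouse 1, 0.0674 and 0.0775 without mouse 2, 0.163 and 0.107 without mouse 3, 0.125 and 0.093 without mouse 4, and 0.0345 and 0.0914 without mouse 5 (limma), at differences of -0.31 to -0.46. The second call was also lost without 5A3+/del mouse 3 (adjusted p = 0.0527, limma), which changes the shared estimate of the spread.

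In 5A3+/del mice, Ccnd2 had 62.1, 91.4, 77.7, 85.0 and 68.6 normalized FPKM in CD150hi HSC, 60.9, 55.6, 57.3, 68.8 and 60.7 in CD150lo HSC, and 50.7, 48.6, 53.9 and 58.0 in CD150neg MPP. The CD150hi libraries spread more widely than those of WT mice, and their lowest value lay within the range of CD150lo HSC. The level fell to 68.6% of CD150hi HSC in CD150neg MPP (-0.53 ± 0.11, adjusted p = 0.00218, limma), lower in 4 of 4 mice and with no overlap, and the adjusted p was 0.215 with the mouse as a fixed replicate block and 0.13 in a fit of these groups alone. In CD150lo HSC it was 78.8% of CD150hi HSC, lower in 5 of 5 mice, and did not pass (adjusted p = 0.0858, limma).

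Ccnd3 and Ccnd1 passed in no comparison. Ccnd3, a D-type cyclin prominent in lymphoid and erythroid precursors, ranged from 14.8 to 36.3 normalized FPKM and averaged 28.8 ± 5.71, 21.2 ± 3.31 and 19.6 ± 3.69 in WT CD150hi HSC, CD150lo HSC and CD150neg MPP. The corresponding means in 5A3+/del mice were 23.9 ± 6.61, 23.5 ± 4.09 and 20.4 ± 4.11. Its closest approach to the threshold was WT CD150neg MPP against CD150hi HSC (-0.53, 95% interval -0.91 to -0.16, adjusted p = 0.0612, limma), and with the mouse as a random replicate block it passed (adjusted p = 0.0442, limma), as it did without WT mouse 3 (-0.67, adjusted p = 0.0423, limma). It also passed with a variance trend (adjusted p = 0.0478, limma) and without 5A3+/del mouse 1 (adjusted p = 0.043, limma). With the mouse as a fixed block it did not pass (adjusted p = 0.132, limma), nor without WT mouse 1 (adjusted p = 0.131, limma). Leaving out WT mouse 2, 4 or 5 gave an adjusted p of 0.223, 0.136 and 0.199 (limma). Ccnd1, the D-type cyclin of many epithelial tissues, ranged from 6.41 to 17.0 normalized FPKM, with means of 10.4 ± 2.35, 7.95 ± 1.81 and 8.20 ± 0.974 in WT and 12.2 ± 4.12, 8.92 ± 1.39 and 11.1 ± 0.804 in 5A3+/del mice, in the same order of populations. The sum of the 3 cyclins was 107 ± 5.80 normalized FPKM in WT CD150hi HSC against 80.6 ± 3.49 in CD150lo HSC and 81.1 ± 6.05 in CD150neg MPP. For this sum the WT CD150hi libraries (100.6 to 114.5) did not overlap with those of CD150lo HSC (76.0 to 84.8) or CD150neg MPP (72.7 to 89.4). In 5A3+/del mice the sums were 113 ± 18.2, 93.1 ± 8.13 and 84.3 ± 0.712. There the CD150hi libraries (84.0 to 130.8) overlapped with those of CD150lo HSC (82.6 to 104.5) and CD150neg MPP (83.5 to 85.2). Ccnd2 made up 63.6% of the sum in WT CD150hi HSC, and the sum was not tested.

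Both kinases had higher means in CD150lo HSC and in CD150neg MPP than in CD150hi HSC, opposite to Ccnd2, and 1 of these differences passed. Cdk6 (ENSMUSG00000040274), on chromosome 5 of mm9 from 3343893 to 3523218 on the plus strand, shares its chromosome with the 5A3 deletion but ends 17.5 Mb before Fbxl13. In WT CD150hi HSC the 5 mice had 27.8, 25.2, 37.0, 28.2 and 34.8 normalized FPKM of Cdk6, in CD150lo HSC 40.7, 37.9, 32.5, 51.8 and 61.3, and in CD150neg MPP 47.4, 39.7, 49.4, 68.0 and 73.1. Every WT CD150neg MPP library lay above every CD150hi library, and WT mouse 3 was the highest in CD150hi HSC but the lowest in CD150lo HSC. Cdk6 rose to 181% of CD150hi HSC in WT CD150neg MPP (0.82 ± 0.20, adjusted p = 0.00642, limma), higher in 5 of 5 mice. This call held with the mouse as a fixed replicate block (adjusted p = 0.0401, limma), without WT mouse 1 (0.83, adjusted p = 0.0265, limma) and without WT mouse 3 (0.92, adjusted p = 0.00803, limma), and was lost without WT mouse 4 (0.71, adjusted p = 0.0535, limma). The WT CD150lo HSC lay between, at 146% of CD150hi HSC (0.51, 95% interval 0.11 to 0.92, adjusted p = 0.189, limma).

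In 5A3+/del mice, Cdk6 had 24.9, 41.7, 31.2, 35.8 and 37.1 normalized FPKM in CD150hi HSC, 37.1, 60.9, 58.7, 55.8 and 65.5 in CD150lo HSC, and 38.4, 53.9, 57.6 and 62.8 in CD150neg MPP. Mouse 1 was the lowest of its genotype in all 3 populations. The level was 163% of CD150hi HSC in CD150lo HSC (0.68 ± 0.20, adjusted p = 0.0523, limma) and 156% in CD150neg MPP (0.62 ± 0.21, adjusted p = 0.0776, limma), higher in 5 of 5 and 4 of 4 mice, without passing. With the mouse as a random replicate block both passed (adjusted p = 0.0278 and 0.0447, limma), with the mouse as a fixed block neither did (adjusted p = 0.0631 and 0.154, limma), and without 5A3+/del mouse 1 the difference for CD150lo HSC was 0.72 (adjusted p = 0.0412, limma).

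Cdk4 (ENSMUSG00000006728), the other D-cyclin kinase, lies on chromosome 10 of mm9 from 126500590 to 126504976 on the plus strand and ranged from 26.5 to 52.1 normalized FPKM. Its means were 31.5 ± 4.45, 36.1 ± 3.59 and 40.3 ± 5.61 in WT and 32.3 ± 3.48, 43.0 ± 7.13 and 44.1 ± 7.08 in 5A3+/del CD150hi HSC, CD150lo HSC and CD150neg MPP. No difference passed, although Cdk4 was higher in CD150neg MPP than in CD150hi HSC in 5 of 5 WT mice (0.35, 95% interval 0.08 to 0.62, adjusted p = 0.102, limma) and in 4 of 4 5A3+/del mice (0.43, 0.14 to 0.72, adjusted p = 0.0707, limma). The voom fit to recovered fragments called both of these, with 0.42 (adjusted p = 0.0387) and 0.50 (adjusted p = 0.0218). Over the 29 libraries, Cdk4 and Cdk6 had a Pearson r of 0.63 on the log2 scale, given as a description, since these libraries share mice and populations. The ratio of Cdk6 to Cdk4 was 0.976 ± 0.122 in WT CD150hi HSC against 1.23 ± 0.261 in CD150lo HSC and 1.38 ± 0.330 in CD150neg MPP. In 5A3+/del mice it was 1.07 ± 0.250, 1.31 ± 0.292 and 1.25 ± 0.398, and the libraries of the populations overlapped in both genotypes. The ratio of Cdk6 to Cdkn1c went from 2.19 ± 0.776 to 7.53 ± 2.04 and 11.0 ± 5.42 in WT mice in the same order. In 5A3+/del mice it went from 2.48 ± 0.633 to 10.8 ± 3.86 and 11.5 ± 4.75.

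Promoter sequences from RefSeq (build GRCm38.p6, 250 bases before to 50 after the start site) were at hand for 7 of 10 members, and those of the kinases are shown because both kinases had their higher means in CD150lo HSC and CD150neg MPP. The letters CACGTG, which read the same on both strands and are the core of the E-box bound by Myc and other bHLH factors, are in capitals. The Cdk4 sequence is chr10:127063285-127063584 and the Cdk6 sequence chr5:3343643-3343942, both on the plus strand.
Cdk4: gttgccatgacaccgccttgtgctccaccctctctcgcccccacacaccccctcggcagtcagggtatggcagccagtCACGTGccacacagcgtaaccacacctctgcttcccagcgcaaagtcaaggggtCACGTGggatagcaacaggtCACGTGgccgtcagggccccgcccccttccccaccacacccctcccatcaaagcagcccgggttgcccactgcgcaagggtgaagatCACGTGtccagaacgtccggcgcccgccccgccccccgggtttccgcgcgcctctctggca
Cdk6: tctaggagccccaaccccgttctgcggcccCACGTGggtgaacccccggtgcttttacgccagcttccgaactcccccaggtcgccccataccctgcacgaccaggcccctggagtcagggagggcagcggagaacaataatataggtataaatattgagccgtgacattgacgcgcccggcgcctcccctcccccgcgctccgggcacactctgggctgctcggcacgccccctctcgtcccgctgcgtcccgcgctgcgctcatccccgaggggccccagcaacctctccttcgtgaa
The Cdk4 window held CACGTG 4 times, beginning 172, 118, 98 and 11 bases upstream of the start site, and the Cdk6 window held it once, 220 bases upstream. Of 32851 promoter windows of the same length, 7.15% held these letters at least once and 8 windows (0.0244%) held them 4 or more times. The only other window of a member with CACGTG was an alternative promoter of Cdkn2c. Searched on both strands, GGGCGG (35.7% of all windows) occurred 3 times for Cdk4 and not for Cdk6, TATAAA (13.6%) and TTTNNCGC (5.17%), in which N is any base, occurred in the Cdk6 window only of these 2, and CCAAT (37.4%) occurred in neither. These matches describe the letters in the window and are no evidence of binding. No promoter was printed for Cdkn1c, Ccnd1 and Ccnd2.

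The INK4 inhibitors were low throughout and did not pass in any comparison. Cdkn2d (p19), which restrains Cdk4 and Cdk6, ranged from 2.70 to 8.40 normalized FPKM, with means of 6.69 ± 1.56, 5.97 ± 0.869 and 5.04 ± 1.38 in WT and 5.82 ± 1.92, 4.51 ± 1.29 and 5.82 ± 1.45 in 5A3+/del CD150hi HSC, CD150lo HSC and CD150neg MPP. Cdkn2c (p18), a known brake on HSC self-renewal, averaged 2.35 ± 1.64, 2.08 ± 0.397 and 1.70 ± 0.998 in WT mice and 1.84 ± 1.27, 2.02 ± 0.454 and 1.36 ± 0.553 in 5A3+/del mice. Of the other INK4 genes, Cdkn2b reached at most 0.158 FPKM in any library and was not tested, and Cdkn2a was not analysed here.

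The main comparison of the study, 5A3+/del against WT, gave 0 of 10 members past the threshold in each population. Of all genes, 0.156% were called in CD150hi HSC, compared with 0.0324% in CD150lo HSC and 0.0454% in CD150neg MPP. At an unadjusted p under 0.05 there was no member in CD150hi HSC (0), 1 in CD150lo HSC (Ccnd2) and 1 in CD150neg MPP (Ccnd1), beside 13.1%, 6.87% and 4.27% of all genes, respectively. The voom fit called 0 in each. The median log2 difference of the members was -0.0046, 0.054 and 0.091, beside 0.0044, 0.011 and -0.0013 over all genes. The mean granulocyte and monocyte sum was higher in WT than in 5A3+/del CD150hi HSC and CD150lo HSC (337 against 71.1 and 408 against 191 FPKM), and its part in these comparisons was not tested.

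In CD150hi HSC the member differences between the genotypes reached from -0.28 (Ccnd3, 95% interval -0.65 to 0.09) to 0.21 (Cdkn1b, -0.15 to 0.57). Cdkn1c in 5A3+/del CD150hi HSC was at 97.2% of WT (-0.05, 95% interval -0.59 to 0.49), Ccnd2 at 113% (0.17, -0.04 to 0.38) and Cdk6 at 111% (0.15, -0.26 to 0.55). In CD150lo HSC the largest values were those of Cdkn2d at 75.6% of WT (-0.36, 95% interval -0.79 to 0.07) and Cdk6 at 124% (0.31, -0.09 to 0.72). Ccnd2 in CD150lo HSC was at 118% of WT (0.23, 95% interval 0.02 to 0.45, adjusted p = 0.644, limma), with WT libraries from 45.4 to 59.5 and 5A3+/del libraries from 55.6 to 68.8 normalized FPKM, which overlap.

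In CD150neg MPP, 1 of the 10 members, Ccnd1, had groups that did not overlap, beside 1.51% of all genes, and it is named after its values were seen. Groups without overlap were found for 0 members in the other populations, where 2.58% (CD150hi HSC) and 1.63% (CD150lo HSC) of all genes had them. Its 5 WT libraries had 9.66, 7.03, 8.40, 8.22 and 7.71 normalized FPKM and the 4 5A3+/del libraries 12.2, 10.3, 11.1 and 10.9, so that the level was 136% of WT (0.40, 95% interval 0.0035 to 0.80, adjusted p = 1.0, limma). In CD150hi HSC the Ccnd1 libraries of both genotypes overlapped, from 7.44 to 13.7 in WT mice and from 6.41 to 17.0 with the deletion. The remaining members in CD150neg MPP lay between -0.13 (Cdkn2c) and 0.24 (Cdkn1a). The widest interval of a member in any population was that of Cdkn1a in CD150neg MPP, -0.63 to 1.11 on the log2 scale, and the narrowest was that of Ccnd2 in CD150hi HSC and CD150lo HSC.

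**Figure D4:**
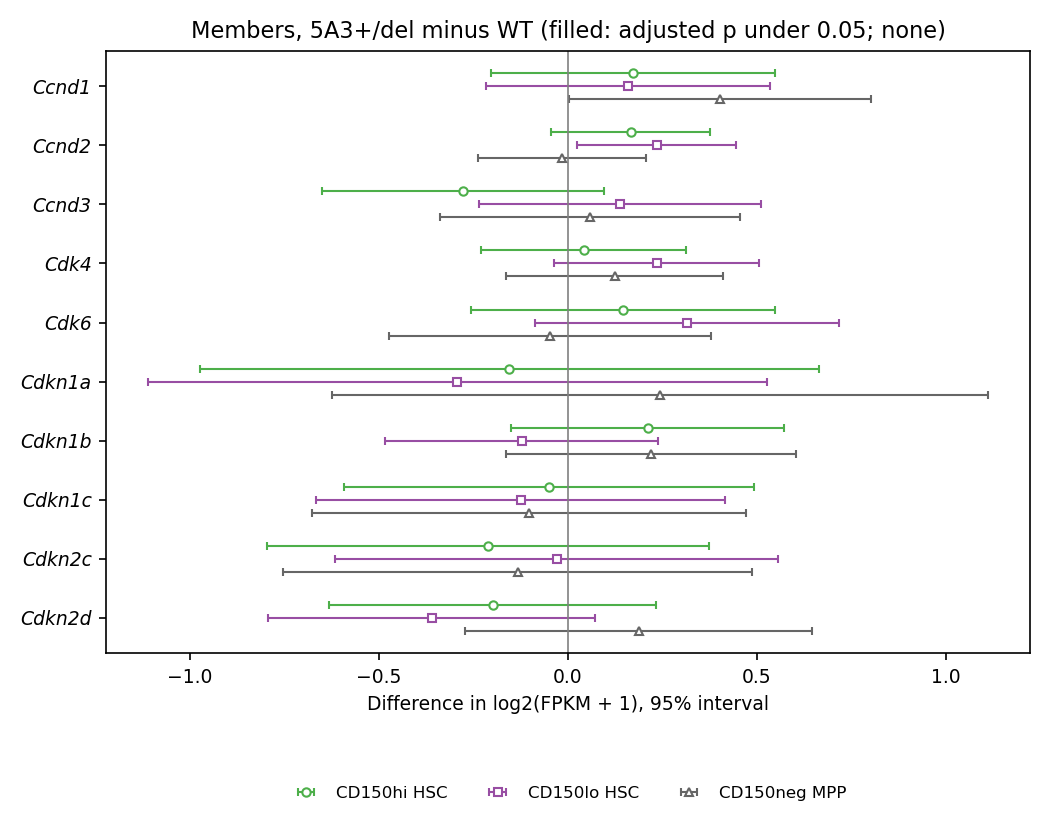
Difference of each member in log2(FPKM + 1) between 5A3+/del and WT mice in CD150hi HSC (green circles), CD150lo HSC (purple squares) and CD150neg MPP (grey triangles), with 95% intervals from limma. No point is filled, since no member passed, and the points lie between -0.36 and 0.40.

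The genotype effect itself was compared between the populations. No member passed for CD150lo HSC against CD150hi HSC, CD150neg MPP against CD150lo HSC or CD150neg MPP against CD150hi HSC, and limma called 0 genes (0.0%) in each, with 614, 771 and 1227 genes (3.98%, 5.0% and 7.96%) and 0 members at an unadjusted p under 0.05, while the voom fit also called 0 members. Equivalently, the fall of Cdkn1c from CD150hi HSC to CD150neg MPP differed between the genotypes by -0.05 (95% interval -0.84 to 0.74) and that of Ccnd2 by -0.18 (-0.49 to 0.12). The rise of Cdk6 differed by -0.19 (-0.78 to 0.39), so the call in WT mice and its absence in 5A3+/del mice do not show a difference between them.

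Other genes of the cell cycle were taken from lists. Of 38 further genes of the G1/S machinery, among them cyclin E and A, Cdk2, the retinoblastoma family and E2F factors, 36 were tested. Of these, 1 of 36 passed between WT CD150neg MPP and CD150hi HSC, where 10.0% of all genes did, and 0 passed in any other comparison between populations or genotypes, where 0 to 5 had an unadjusted p under 0.05 and the voom fit called 0. The gene was Cks1b, a subunit of the ubiquitin ligase that removes Cdkn1b, which rose from 14.2 ± 6.10 to 22.8 ± 4.07 normalized FPKM (0.74 ± 0.24, adjusted p = 0.0483, limma), and it passed under 7 of 20 alternatives. The call was lost without WT mouse 1 (0.87, adjusted p = 0.0538, limma) and with the mouse as a fixed replicate block (adjusted p = 0.189, limma), and held without WT mouse 3 (0.95, adjusted p = 0.0205, limma). The median log2 difference of the 36 genes in that comparison was -0.03, with 16 above 0.

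Of 26 proliferation genes, such as Mki67, Top2a and the Mcm helicase subunits, limma called 0 in every comparison, with 0 to 4 at an unadjusted p under 0.05. Between WT CD150neg MPP and CD150hi HSC, 4 (15.4%) had an unadjusted p under 0.05, beside 21.8% of all genes, 21 (80.8%) were above 0, beside 50.9%, and the median log2 difference was 0.27 beside 0.01 over all genes. The share above 0 was 88.5% for WT CD150lo against CD150hi HSC and 53.8% for CD150neg MPP against CD150lo HSC, beside 50.5% and 51.1%. Between 5A3+/del and WT mice it was 69.2%, 76.9% and 80.8% in CD150hi HSC, CD150lo HSC and CD150neg MPP. All genes gave 50.7%, 52.0% and 49.8% there. The summed FPKM of these genes averaged 289 (range 245 to 372) in WT CD150hi HSC against 342 (287 to 389) in CD150lo HSC and 355 (309 to 418) in CD150neg MPP, and 309, 370 and 411 in the 5A3+/del populations. This sum moved with the fall of Cdkn1c and the rise of Cdk6, and its part in them was not tested. The mean granulocyte and monocyte sum was lower in CD150neg MPP than in CD150hi HSC of WT mice and higher in those of 5A3+/del mice. In WT mice S100a8 (35.0 against 169) and S100a9 (14.8 against 124) were lower in CD150neg MPP. Itgam (10.1 against 1.33), Prtn3 and Csf1r were not. The part of this sum in the differences of the members was not tested either. The 8 T and NK cell markers summed to 13.7 FPKM in WT CD150hi HSC against 24.3 in CD150lo HSC and 37.9 in CD150neg MPP. Within these sums Nkg7 made up 7.75, 19.1 and 29.6, respectively, while Klrb1c went the other way with 2.79, 0.371 and 0.435, and Cd3e, Cd3d, Cd3g and Cd8a were at most 1.06 in every library. The 8 erythroid markers summed to 17.4 FPKM (12.7 to 21.0) in WT CD150hi HSC, without overlap with the 31.3 (26.7 to 38.5) of CD150lo HSC, and to 27.9 (14.1 to 42.1) in CD150neg MPP. Hbb-b1 was higher in WT CD150lo than CD150hi HSC (14.6 against 7.34), but Epor (0.542 against 1.52) and Klf1 were lower. The 8 megakaryocyte markers summed to 57.0 (45.0 to 65.9), 40.6 (34.9 to 49.0) and 43.5 (30.7 to 63.0) in WT CD150hi HSC, CD150lo HSC and CD150neg MPP. Vwf (5.64, 0.755 and 0.511), Itgb3, Gp9, Gp5 and Itga2b were highest in CD150hi HSC. Pf4 (20.7, 23.6 and 23.3), Ppbp and Gp1bb were lowest there. In 5A3+/del mice the erythroid sums were 21.6, 34.2 and 24.5 and the megakaryocyte sums 51.2, 48.6 and 34.0. The part of these sums in the differences of the members was not tested.

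Of 20 targets of p53 other than Cdkn1a, 18 were tested. Between WT CD150neg MPP and CD150hi HSC, 3 of 18 passed beside 10.0% of all genes, and in 5A3+/del mice 2 of 18 passed beside 6.16%. Between CD150lo HSC and CD150hi HSC, 0 passed in WT mice and 2 of 18 in 5A3+/del mice, beside 3.53% and 3.18% of all genes. The kinase Plk2 fell from 8.50 ± 3.18 to 3.63 ± 1.33 normalized FPKM (-1.03 ± 0.31, adjusted p = 0.0310, limma) and the death receptor Fas from 1.24 ± 0.608 to 0.309 ± 0.344 (-0.76 ± 0.22, adjusted p = 0.0276, limma), while Trp53inp1 rose from 8.23 ± 2.80 to 13.4 ± 2.89 (0.67 ± 0.20, adjusted p = 0.0314, limma). The WT calls depended on single mice. Without WT mouse 3 none of the 3 passed (adjusted p = 0.107 for Fas, 0.0719 for Plk2 and 0.141 for Trp53inp1, limma), and without WT mouse 1 only Fas did (adjusted p = 0.0414, against 0.101 for Plk2 and 0.108 for Trp53inp1, limma). With the mouse as a fixed replicate block Fas passed and the others did not (adjusted p = 0.0454, against 0.067 for Plk2 and 0.0744 for Trp53inp1, limma). Fas, at the lowest level of the 3, did not pass without normalization (adjusted p = 0.079, limma), with median scaling (0.0556) or with voom (0.169). Plk2 and Trp53inp1 passed under each of these. None of the 3 passed without the filter or in a fit of the compared groups alone. In 5A3+/del mice Plk2 and Fas fell between the same populations as well (-1.49 and -1.15, adjusted p = 0.00398 and 0.00218, limma), also with the fixed block (adjusted p = 0.0288 and 0.0322, limma). Cdkn1a itself differed by -0.02 in WT mice (95% interval -0.84 to 0.80) and by 0.38 with the deletion (-0.49 to 1.25).

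The genes with the most similar profile to each member were taken by Pearson correlation of the log2 values over the 29 libraries, and these values are descriptive. For Cdkn1c they were Gm10419 and C530008M17Rik (r = 0.87 each), for Ccnd2 Fam55b and Plxnc1 (0.86 and 0.85), and for Cdk6 Il18rap and 9030619P08Rik (0.85 each). Cdkn2d was closest to Gm4694 (0.85) and Snrpe (0.72), and Cdk4 to Smoc1 (0.83) and H2-DMa (0.82). Cdkn1a was closest to the immediate early gene Nr4a1 (0.78) and to Rtn2 (0.76), Ccnd1 to Hebp1 (0.77) and Dock9 (0.73), and Ccnd3 to Tbc1d8 (0.73) and Myom1 (0.72). Cdkn2c was closest to Gm15489 (0.73) and Tmem57 (0.72), and Cdkn1b to Cnnm4 and Gm16216 (0.68 each). Between members the highest r was that of Cdkn1c and Ccnd2 (0.76), followed by Cdk4 and Cdk6 (0.63), and the lowest was that of Cdkn1c and Cdk6 (-0.54).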

How the data were processed

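Amplified cDNA of the 3 sorted populations was sequenced with paired ends, and FPKM per gene (mm9) is the unit of the table that the authors deposited. The processing notes name Bowtie version 0.12.2 and HTSeq. How FPKM was computed is not given in the sources used here, and the exon coverage that the study tested is another measure. Of 30025 gene identifiers, 29279 matched the GENCODE annotation of mm9 used here. FPKM times exon length gave whole fragments (within 0.05) for 98.3% to 98.8% of low values, from which 21229490 to 38797569 fragments per library were recovered. PCR copies cannot be told apart, so this covers counting error only.

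Groups follow the labelled genotype and cell type. For the 15409 genes that reached 1 FPKM in 4 or more libraries, a pseudocount of 1 was added before taking log2, and the values were quantile normalized. limma version 3.58.1 (R version 4.3.3) was fitted to 29 libraries with 6 group means. Tests were two-sided, with Benjamini-Hochberg adjustment over all genes and a threshold of 0.05, and intervals cover 95%. The fold changes are on the log2(FPKM + 1) scale and understate those of low genes. Each library is a mouse and population, and a code in the labels ties the populations of a mouse together. The deviations of libraries of the same mouse had a median correlation of 0.0786, against -0.025 for other mice of the genotype, and the mouse was a replicate block in alternatives. WT and 5A3+/del libraries of the same number are different mice.

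The members and gene lists were chosen with earlier results of these data known. All members are named, with values per library for those that passed a comparison and for Ccnd1 in CD150neg MPP, which was chosen after its values were seen; of each list, up to 4 genes past 0.05 in the comparisons of WT CD150neg MPP with CD150hi HSC or of the genotypes; and per member the 2 genes with the highest correlation. No member was below the filter, so the permutation test meant for such members was not needed. Alternatives were the pseudocount, filter, normalization, variance trend, groups fitted, blocks, age, leaving out each mouse and, added after the data were seen, voom on recovered fragments. The steps were tested on simulated data.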

Additional observations from a re-analysis of the deposited data

Results flagged for a closer look

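In 5 of the 60 combinations of a member and a group, a library lay so far from the others that Dixon's test at 95% marked it, where chance would mark about 3. Cdkn1b was at 31.2 normalized FPKM in WT CD150lo HSC of mouse 3, against 16.8 to 20.3 in the other 4 mice. Cdkn1c was at 9.25 in 5A3+/del CD150neg MPP of mouse 2, against 3.74 to 4.17 in the other 3. Cdkn2c was at 4.06 in 5A3+/del CD150hi HSC of mouse 2, against 0.816 to 1.53. Ccnd1 was at 11.0 in WT CD150lo HSC of mouse 4, against 6.57 to 7.84, and at 11.4 in 5A3+/del CD150lo HSC of mouse 2, against 7.98 to 8.66. The reason for these values was not tested.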

How the results depend on the processing

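No member was called between genotypes, between CD150neg MPP and CD150lo HSC, or for a difference of the genotype effect under any of the alternatives run, and no called log2 difference of a member changed sign. Between CD150lo and CD150hi HSC of WT mice, 2 members became 1 (Cdkn1c) in a fit of only the groups compared and with the mouse as a fixed replicate block, and leaving out a mouse gave 0 to 2. Of 5A3+/del mice, 1 became 2 without the filter, without normalization, with median scaling, with age as covariate or with the mouse as a random replicate block, 3 with a variance trend or voom, and 0 with only these groups or the fixed block. Leaving out a mouse gave 1 to 3. Between CD150neg MPP and CD150hi HSC of WT mice leaving out a mouse gave 1 to 4, with 1 (Cdkn1c) without WT mouse 4. In the same comparison Ccnd2 was lost with only the groups compared and with the fixed block. Ccnd3 was gained with a variance trend and with the random block, and Cdk4 with voom. Of 5A3+/del mice, 2 became 4 (with Cdk4 and Cdk6) without normalization, with median scaling or voom, 1 with only these groups and 0 with the fixed block. Cdk4 was also gained there with a variance trend, and Cdk6 with the random block. The single G1/S gene called in WT mice, Cks1b, was lost (0) with a pseudocount of 0.1, without the filter, with only these groups, with the fixed block and with age as covariate, and leaving out a mouse gave 0 to 1, as it did for the G1/S list in 5A3+/del mice. Both the fixed block and the fit of only the groups compared use fewer libraries. With the number shared by WT and 5A3+/del libraries as a replicate block, 0 members were called. The deviations of libraries that share a number correlated at -0.0338 to 0.0807. Their median was 0.0345, against -0.0126 for libraries of other numbers, and whether the numbers pair the mice was not tested. Of all genes, those called between genotypes ranged from 0 to 100 (CD150hi HSC), 0 to 77 (CD150lo HSC) and 0 to 8 (CD150neg MPP) over the alternatives, beside 24, 5 and 7. Those between CD150neg MPP and CD150hi HSC ranged from 680 to 1783 beside 1548 in WT and from 171 to 1067 beside 949 in 5A3+/del mice; between CD150lo and CD150hi HSC from 177 to 650 beside 544 and from 165 to 572 beside 490; and between CD150neg MPP and CD150lo HSC from 0 to 72 beside 29 and from 0 to 7 beside 6. With 4 or 5 mice a group, the intervals of Cdkn1a and Cdkn2c admit differences in either direction, and their fragments (15 to 394 for Cdkn2c) limit them further.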

Other observations

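Cdkn1a seemed to vary by mouse in CD150hi and CD150lo HSC, a pattern that was noticed in the data. WT mice 4 and 5 had 2.20 and 4.08 normalized FPKM in CD150hi HSC and 3.92 and 4.17 in CD150lo HSC, and 5A3+/del mouse 5 had 2.39 and 2.43, whereas WT mouse 2 had 12.2 and 9.41. Not every mouse kept its level, as 5A3+/del mouse 4 had 3.44 and 6.00. In CD150neg MPP, WT mouse 4 was at 1.91 and WT mouse 5 at 6.16. WT mice 4 and 5 and 5A3+/del mouse 5 were younger than WT mouse 2. The equally young 5A3+/del mouse 3 had 5.85 in CD150hi HSC and 6.57 in CD150lo HSC, and the part of age in this pattern was not tested. Over 10 mice, the deviations of Cdkn1a from the group mean in CD150hi and CD150lo HSC had a Pearson r of 0.79 (permutation p = 0.0123, adjusted over 10 members 0.0615) and a Spearman rho of 0.67 (permutation p = 0.0395, adjusted 0.199), and r was 0.53 without the 2 mice farthest from the median. Cdkn1b gave -0.75 (permutation p = 0.00748, adjusted 0.0615) and a rho of -0.67 (permutation p = 0.0398, adjusted 0.199), with -0.56 without the 2 farthest mice. Neither relation passed after adjustment.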
